A study of Arabidopsis thaliana with 24 samples.

Results

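The genes described here are those whose transcripts were lower in Arabidopsis thaliana roots at every time sampled during osmotic stress. The rule took the submitters' normalized counts, averaged log2(normalized count + 1) over the 3 libraries of a group, and kept a gene where roots in polyethylene glycol (PEG) for 1 h, 2 h and 3 h each lay at least 1.25 below roots in water and where root water averaged at least 20 normalized counts. Of the 18240 genes in the table, 7563 reached that level in root water, and 190 of them met the rule. The genes were thus chosen by their normalized counts in the 12 root libraries. Every root value of these 190 genes is therefore given as a description without a test. Tests are given only for shoots and for genes outside the set, except that some counts of list genes in the last section include members.

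The study exposed 7-day-old Columbia-0 seedlings to an osmotic shock and counted transcripts by MARS-seq, which tags and counts the 3′ ends of polyadenylated RNA. The groups used here were roots in 30% PEG of average molecular weight 8000 (measured at -2.0 MPa) for 1 h, 2 h or 3 h and roots in water for 1 h, and the same 4 groups for shoots, with 3 libraries each. All seedlings were wild type, were grown on sucrose-supplemented Murashige and Skoog plates before the transfer to solution, and entered a library as pools of 30 to 50. Water was sampled at 1 h alone, so the effect of PEG at 2 h and 3 h cannot be told apart from that of longer time in solution, and the 3 PEG comparisons share the same 3 water libraries.

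The 12 root libraries held 1332586 to 5495746 counts (median 4031935), with root PEG 1 h replicate 3 the shallowest, and the 12 shoot libraries held 343397 to 4009409, with shoot PEG 2 h replicate 2 the shallowest. The labels carry a library code whose digit follows the groups in part. It is 6 in all root PEG libraries except PEG 1 h replicate 1, where it is 5, and 5 in root water, while in shoots it is 5 in all 3 PEG 3 h libraries and PEG 2 h replicate 3, and 4 in the rest. The labels do not say what the digit stands for. Tissue labels matched their markers: 42 nuclear photosynthesis genes summed to 4437 to 8460 normalized counts in the root libraries and to 561011 to 806129 in the shoot libraries, and 6 root hair cell markers summed to 1300 to 1409 in root water and to 11.9 to 16.6 in shoot water. Of these 6 markers 4 are members, and the rule used their root water level. The match of labels is therefore read from the photosynthesis genes, none of which is a member.

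Root hairs are tubular outgrowths of epidermal cells that enlarge the surface through which the root takes up water and ions. They elongate by tip growth, in which the wall is loosened and rebuilt at the apex by expansins, xyloglucan endotransglucosylases and pectin-modifying enzymes and is reinforced by extensins, proline-rich glycoproteins that peroxidases crosslink. Hair cell fate is set earlier by regulators such as GL2 and CPC, RHD6 starts hair formation, and later bHLH factors such as RSL2 and LRL3 act on the genes of hair growth. Many uptake carriers of the root surface are transcribed according to nutrient supply.

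The lower levels were already present after 1 h, and the typical gene was somewhat lower at 2 h and 3 h than at 1 h. The 190 genes had a median log2 difference from root water of -2.01 at 1 h, -2.26 at 2 h and -2.39 at 3 h, with the most extreme gene at -4.17, -4.77 and -4.84. Over all 7563 genes past the level minimum the medians were -0.13, -0.14 and -0.18. The median gene kept 17.8% of its root water level at 3 h (range 1.72% to 41.9%). Together the 190 genes took 0.551% to 0.716% of the counts of a root library at PEG 1 h, 0.475% to 0.576% at 2 h and 0.476% to 0.541% at 3 h, against 2.06% to 2.11% in root water.

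**Figure D1:**
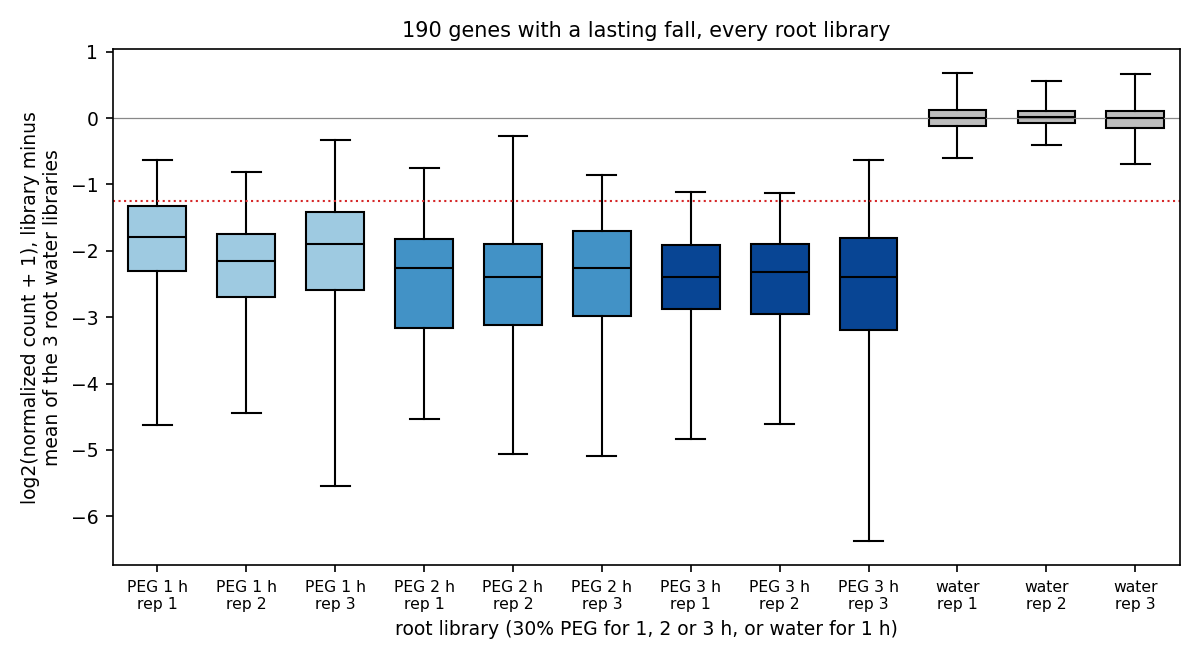
Each box shows the 190 genes in 1 root library, as log2(normalized count + 1) in that library minus the gene's mean over the 3 root water libraries (box: quartiles and median; whiskers: lowest and highest gene; dotted line: the rule's limit of -1.25). All 9 PEG boxes lie below the 3 water boxes, and the PEG 1 h medians (-1.80, -2.16 and -1.90) lie above those of the later libraries.

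All 3 PEG libraries of a time lay below all 3 water libraries in 190, 189 and 190 members at 1 h, 2 h and 3 h, and in 26.2%, 34.7% and 39.5% of the genes past the level minimum. In 189 of the 190 genes all 9 PEG libraries lay below all 3 water libraries, as they did for 18.6% of the genes past the level minimum. The rule fixes this direction, so nothing is read from these counts. The exception was AT1G76065, annotated as an LYR family protein of iron-sulfur cluster biogenesis and named here because it overlapped. It had 3.68, 17.5 and 8.12 normalized counts at PEG 2 h against 17.0, 23.3 and 24.3 in water. In root PEG 1 h replicate 1, which shares its code digit with the water libraries, all 190 genes lay below all 3 water libraries (46.1% of the genes past the level minimum did), with a median log2 difference of -1.80.

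The set was not uniform in time. At 2 h 144 of the 190 genes were lower than at 1 h, and at 3 h 103 were lower than at 2 h. The lowest of the 3 group means stood at 1 h for 25 genes, at 2 h for 74 and at 3 h for 91. The difference of PEG 3 h minus PEG 1 h had a median of -0.43 and ran from -2.13 to 1.21. Over all genes past the level minimum its median was -0.09. The difference of PEG 3 h minus PEG 2 h had a median of -0.04 both in members and over those genes. At 3 h 29 members were lower by 1 or more than at 1 h, and 9 were higher by 0.5 or more. The genes nearest to the limit inside it were ERD7, AT3G25870 and AT1G72200, whose smallest differences were -1.25, -1.25 and -1.26. Just outside it were AT3G63380, AT5G27930 and AT5G24570 at -1.25, -1.24 and -1.24.

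Extensins and proline-rich wall proteins included many of the lowest genes of the set, although EXT4 lay near the limit. Of the 13 genes on a list of extensins and leucine-rich repeat extensins, 9 were members, and 19 members were annotated as extensin, proline-rich or hydroxyproline-rich proteins, 20.9% of the 91 such genes past the level minimum. The median log2 difference of those 19 was -3.01 at 1 h, -3.63 at 2 h and -3.74 at 3 h. These libraries are bulk tissue, so fewer root hair cells and less RNA per root hair cell cannot be told apart.

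EXT12, an extensin, had 27.6, 31.1 and 38.3 normalized counts at PEG 1 h, 18.4, 14.2 and 14.2 at 2 h and 27.1, 26.5 and 13.9 at 3 h, against 487, 377 and 496 in root water. The highest PEG library (38.3) was far below the lowest water library (377), and the log2 differences were -3.77, -4.77 and -4.32. LRX1, which joins a leucine-rich repeat domain to an extensin domain in the root hair wall, had 29.8, 12.8 and 19.2 normalized counts at 1 h, 16.3, 10.8 and 4.06 at 2 h and 16.8, 8.35 and 11.7 at 3 h, against 171, 185 and 160.0 in water. PRP3, a proline-rich protein of the root hair wall, had 95.6, 71.9 and 101 at 1 h, 68.3, 44.1 and 34.5 at 2 h and 72.2, 81.1 and 45.4 at 3 h, against 848, 802 and 703 in water. Both genes were lowest at 2 h and showed no overlap with water.

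EXT10, EXT6, EXT11, EXT13 and HRGP1 behaved alike, with log2 differences of -3.01 to -4.84 over the 3 times. EXT11 went lowest late: it had 15.9, 12 and 24.6 normalized counts at 1 h and 9.67, 8.84 and 1.07 at 3 h, against 189, 163 and 162 in water. Extensin-like genes with high counts in root water took different courses. AT1G23720 had 799, 657 and 942 normalized counts at 1 h, 315, 475 and 412 at 2 h and 217, 197 and 137 at 3 h, against 3226, 3250 and 3882 in water, a stepwise course of -2.12, -3.12 and -4.25. It had the largest difference between PEG 3 h and PEG 1 h of all 190 genes (-2.13). AT3G28550 was also lower at each step (-1.77, -2.71 and -3.20), while AT3G54580, at a similar root water level, was about level (-2.91, -3.34 and -3.23).

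EXT4, the extensin with the highest root water level among members (5318 ± 167 normalized counts, SD, n = 3), stood close to the rule's limit. It had 3147, 1434 and 2212 normalized counts at 1 h, 2438, 1856 and 2138 at 2 h and 1413, 2336 and 2048 at 3 h, and its differences were -1.30, -1.32 and -1.49. The PEG libraries of this gene varied more within a time than between times. EXT3, an extensin outside the set, was more abundant, with a mean of 20683 normalized counts in root water. It fell by 0.94, 1.31 and 1.90 on the log2 scale (edgeR adjusted p = 0.0012, 3.75e-05 and 4.83e-07). Of the 3 genes of the extensin list tested outside the set, 1, 2 and 2 fell and 0 rose at 1 h, 2 h and 3 h. The split of reads between some extensins is uncertain: in the last 500 bases of their RefSeq transcripts, AT4G08410, AT4G08400, EXT6, AT5G06630 and AT3G28550 shared 13.2% to 18.0% of their 40-base words with another gene's transcript, each with at least 1 other member. EXT12, EXT10, EXT13 and LRX1 shared none, and HRGP1 shared 0.217%.

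Some proteins that loosen the wall were members too. Past the level minimum, 2 of 15 expansins (13.3%) and 4 of 19 xyloglucan endotransglucosylases (21.1%) met the rule, against 2.51% of all 7563 genes. EXPA7, an expansin of root hair cells, had 35.1, 21.6 and 30.1 normalized counts at PEG 1 h, 24.7, 12.5 and 18.3 at 2 h and 30.9, 27.5 and 12.3 at 3 h, against 209, 238 and 249 in water. EXPA18, its close relative, had 47.8, 38.3 and 24.6 at 1 h, 17.3, 17.5 and 31.5 at 2 h and 39.96, 45.2 and 26.7 at 3 h, against 202, 249.6 and 243 in water. Neither gene overlapped water at any time, and both means were lowest at 2 h. The xyloglucan endotransglucosylases XTH14, XTH12, XTH26 and XTH33, which cut and rejoin xyloglucan chains, kept 15.7% to 25.4% of their water level at 3 h. Of the 16 xyloglucan endotransglucosylases tested outside the set, 1, 4 and 5 fell at 1 h, 2 h and 3 h. At those times 5, 5 and 3 rose (edgeR adjusted p under 0.05). Of the 18 expansins tested outside the set, 3, 3 and 6 fell and 1, 4 and 4 rose. With a term for the code digit, 0, 0 and 1 of these xyloglucan endotransglucosylases fell and 2, 2 and 1 rose. Under that term 0, 0 and 0 of the 18 expansins fell and 1, 0 and 0 rose. Shares over all genes are given below.

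Genes that steer or fuel tip growth were among the members too. SHV2 (COBL9), a COBRA-like membrane-anchored protein needed for hair elongation, had 17.0, 5.59 and 0 normalized counts at 1 h, 6.31, 6.66 and 9.13 at 2 h and 0.645, 3.93 and 1.60 at 3 h, against 56.4, 48.3 and 35.4 in water. LRL3, a bHLH transcription factor of root hair growth, had 55.3, 28.7 and 19.2 at 1 h, 24.2, 15.8 and 28.4 at 2 h and 50.9, 42.3 and 25.1 at 3 h, against 224, 242 and 212 in water. SHV2 was lowest at 3 h and LRL3 at 2 h. HA7 (AHA7), a plasma membrane proton pump, stood at log2 differences of -2.64, -3.15 and -3.21. PERK13 (RHS10), a receptor kinase with a proline-rich extracellular part, stood at -2.27, -3.44 and -2.47, and its counts were low, with 17.0 to 25.8 in water. RHS12, RHS14, RHS17 and RHS19, named for root hair specific expression, lay between -1.27 and -4.14, and MRH6, named for a root hair mutant, at -2.08, -3.17 and -3.43.

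**Figure D2:**
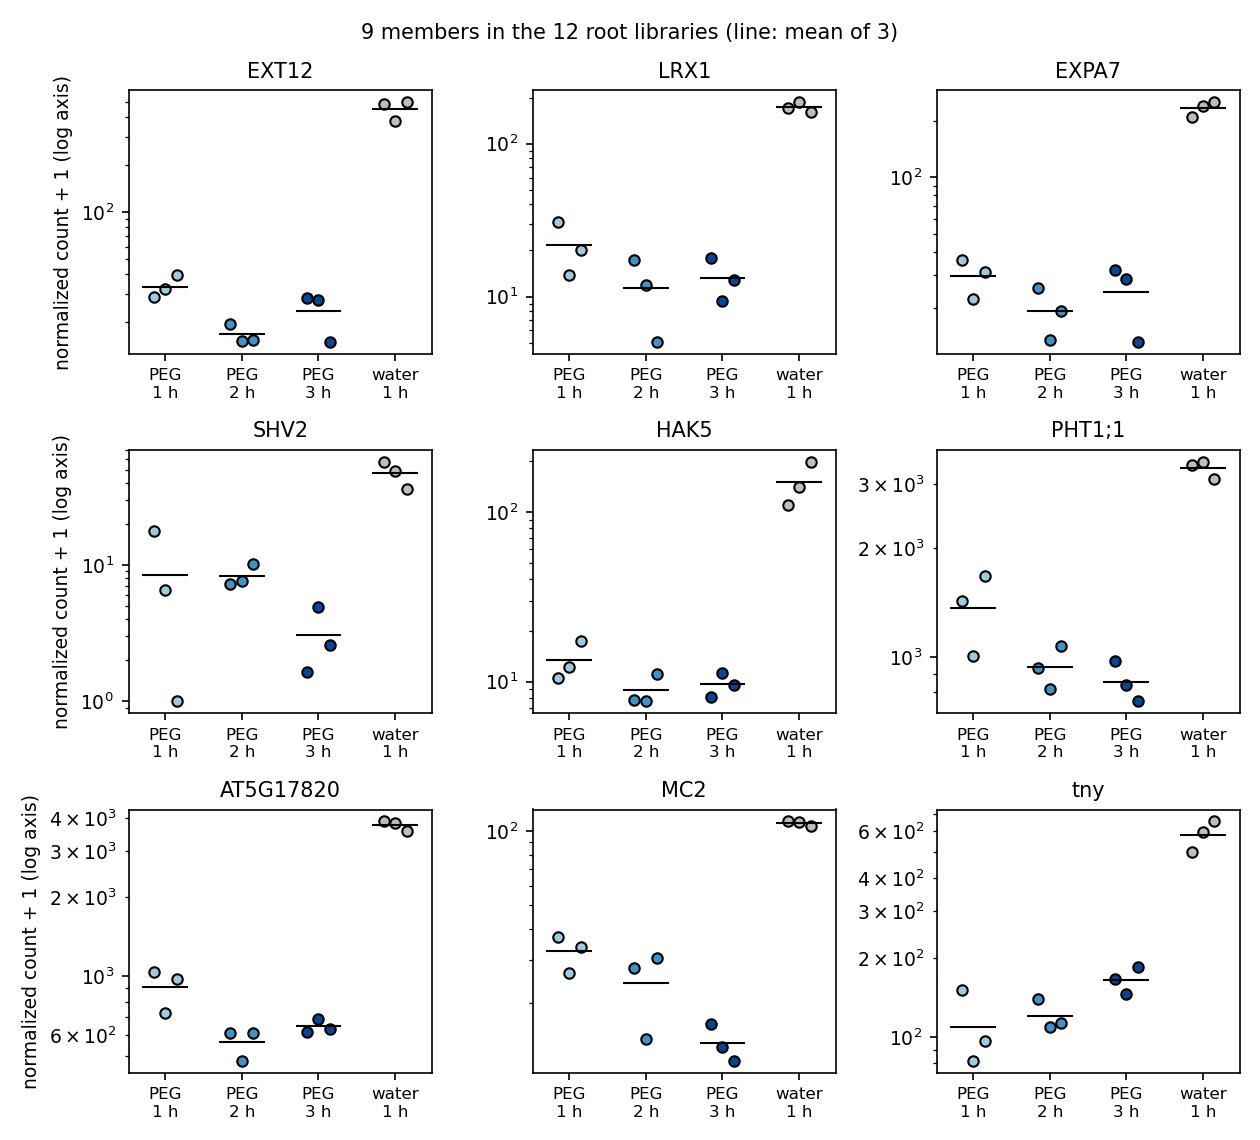
Normalized counts plus 1 (log axis) of 9 of the 190 genes in each of the 12 root libraries, by group, with a line at the mean of 3. EXT12, LRX1, EXPA7 and AT5G17820 have their lowest mean at 2 h, PHT1;1 and MC2 at 3 h, and tny at 1 h, and in all 9 genes the PEG libraries lie below the water libraries.

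The sequence before these genes was examined for a short string known from promoters of root hair genes, the core of the root hair element. The strings searched on both strands were TGNNNGCACG, TGNNNTCACG, TGNNNNGCACG and TGNNNNTCACG, where N is any base, in the 300 bases before each annotated gene start (RefSeq annotation on TAIR10.1, read by locus tag; the submitters' build is not known here). Of the 188 members with such a window, 25 held the core (13.3%), against 413 of 7463 genes past the level minimum (5.53%) and 1319 of 27443 protein-coding genes of the annotation (4.81%). Of the 17 members on the root hair lists with a window, 7 held it (41.2%). The string is itself known from promoters of root hair genes, so nothing is read from that share. For each of these 7 genes, whose root levels are given above, the match nearest to the gene start is printed 5′ to 3′ on the gene's strand with the match in capitals and its flanks in lower case. A match beginning with CGTG lies on the opposite strand.
EXPA7 (chr1:4276422-4276451, plus strand): aaaggatagTGATCCGCACGtagccaccac
EXPA18 (chr1:23331517-23331546, plus strand): aaaacaaacaTGAACGCACGtccattactt
LRX1 (chr1:4069891-4069920, plus strand): cctctaggaaCGTGCGTCCAagtttgagga
PERK13 (chr1:26555675-26555704, plus strand): tggatcaaacactcacacgaCGTGCCTCCA
MRH6 (chr2:1132042-1132071, plus strand): ttattttcaTGGCAAGCACGttcaagaaat
PRP3 (chr3:23182548-23182577, plus strand): gtttttgatCGTGCATTACActtaggtatg
SHV2 (chr5:19974557-19974586, minus strand): ccaccaacgTGCGTGGCACGagttctaaac

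EXPA7 held 2 matches in its window, chr1:4276205-4276504 on the plus strand, which is shown whole for their spacing.
EXPA7 window: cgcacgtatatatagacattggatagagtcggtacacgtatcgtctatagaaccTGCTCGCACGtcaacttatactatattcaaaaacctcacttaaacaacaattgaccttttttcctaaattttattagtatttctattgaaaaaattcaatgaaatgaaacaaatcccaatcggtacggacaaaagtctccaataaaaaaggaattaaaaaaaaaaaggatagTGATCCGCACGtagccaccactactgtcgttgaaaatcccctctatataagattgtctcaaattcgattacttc
LRX1 also held 2 separate matches, and SHV2 held 2 that overlap on opposite strands, while EXPA18, PERK13, MRH6 and PRP3 held 1. Outside the root hair lists the core stood before 18 members, among them GH9C1, MOP10, EXO70C2, ZIP9 and TED7. Strings known from abscisic acid and dehydration responses were counted too, with no test of the difference. CACGTG stood in 5 of 188 member windows (2.66%, against 8.27% of all 7463 genes past the level minimum, members included), ACGTGGC in 1 (0.532%, against 3.91%) and ACGTGTC in 3 (1.60%, against 4.53%). CACGTG contains the CACG of the root hair strings, and the matches overlapped in 1 member. A match is a description of the letters in the window and not a binding site.

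**Figure D3:**
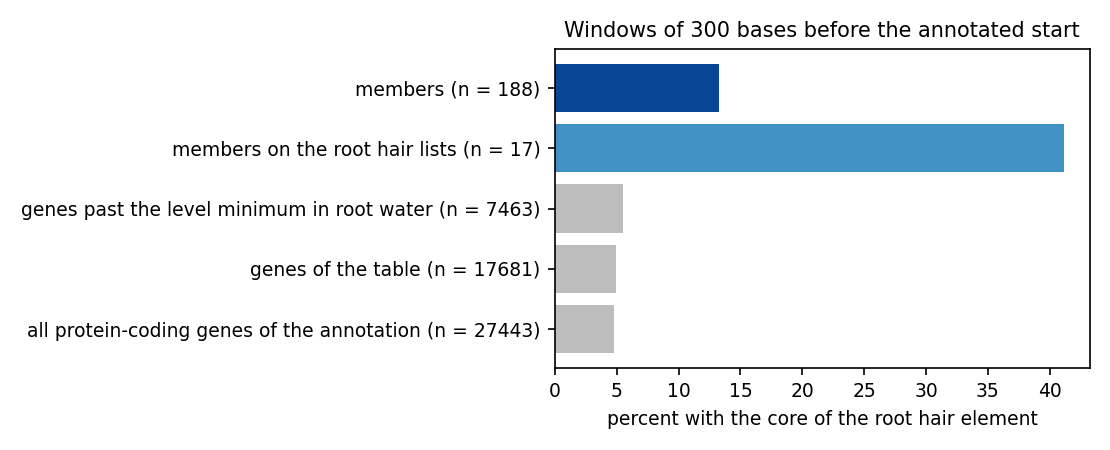
Share of genes (percent, horizontal axis from 0) whose 300-base window before the annotated start holds the core of the root hair element, for members, members on the root hair lists, and the larger sets that contain them. The share is 13.3% in members and 41.2% in members on the root hair lists, against 4.81% to 5.53% in the 3 larger sets. The string is known from promoters of root hair genes, so nothing is read from the 41.2%.

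Genes of the root hair lists outside the set could be tested. In roots, the quasi-likelihood test of edgeR (p-values adjusted by Benjamini-Hochberg across the 10941 genes tested) called 9.06% of genes lower and 11.5% higher at 1 h, 12.3% and 12.7% at 2 h, and 19.5% and 21.1% at 3 h (adjusted p under 0.05), with a median log2 fold change over all genes of 0.03, 0.06 and 0.07. Of the 51 matched genes of root hair growth, 43 were in the table, 17 were members and 15 non-members were tested. Of these 15, 5 fell at each time, and 1 rose at 1 h, 0 at 2 h and 1 at 3 h. Their median log2 fold change was -0.13, -0.12 and -0.17.

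RSL2, a bHLH factor of hair growth outside the set, had 17.0, 11.2 and 8.21 normalized counts at 1 h, 7.36, 4.16 and 6.09 at 2 h and 5.16, 8.35 and 3.74 at 3 h, against 18.6, 39.9 and 29.5 in water (log2 fold changes -1.08, -2.13 and -2.20, edgeR adjusted p = 0.0474, 0.000409 and 0.000119). The 1 h call was lost without PEG 1 h replicate 2 or 3 or water replicate 2 or 3 (adjusted p = 0.0826 to 0.171). SHV3, a glycerophosphodiester phosphodiesterase-like wall protein, and CSLD2, a cellulose synthase-like protein, fell by 1.11 and 1.16 on the log2 scale at 3 h (edgeR adjusted p = 1.57e-05 and 5.69e-05). RHD6, which acts before the hair emerges, had 76.5, 62.3 and 43.8 normalized counts at 1 h, 68.8, 71.6 and 71.0 at 2 h and 72.2, 57.5 and 66.7 at 3 h, against 67.3, 63.2 and 64.9 in water. PEG and water libraries overlapped at 1 h and 3 h, all 3 PEG 2 h libraries lay slightly above water, and no time passed the test (edgeR adjusted p = 0.855, 0.366 and 0.644).

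None of the 10 pattern regulators in the table was a member, and of the 6 tested 2 fell and 1 rose at 1 h, 0 fell and 1 rose at 2 h, and 0 fell and 2 rose at 3 h. CPC, a small MYB protein that promotes hair cell fate, had 231, 208 and 208 normalized counts at 1 h, 263, 215 and 240.5 at 2 h and 305, 294 and 251 at 3 h, against 142, 159 and 160.0 in water, and rose by log2 fold changes of 0.58, 0.76 and 0.99 (edgeR adjusted p = 0.00392, 0.000195 and 6.68e-06). GL2, a regulator of non-hair cells, fell at 1 h by 0.58 on the log2 scale (edgeR adjusted p = 0.0478), a call lost on leaving out PEG 1 h replicate 2 or 3 or water replicate 1 or 2 (adjusted p = 0.149, 0.109, 0.138 and 0.0761). It had 74.1, 74.7 and 77.4 at 3 h against 85.0, 75.7 and 64.2 in water (edgeR adjusted p = 0.634). In a fit with a term for the code digit, none of the 15 root hair growth non-members was called (0 fell and 0 rose at each time). CPC stayed called at the 3 times under that term, though not at 1 h in a fit of all 24 libraries (edgeR adjusted p = 0.136), while RSL2, SHV3 and CSLD2 were not called at any time under the term. Over all genes that fit called 2.38% lower and 3.37% higher at 1 h, 2.38% and 3.23% at 2 h, and 4.86% and 4.16% at 3 h.

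**Figure D4:**
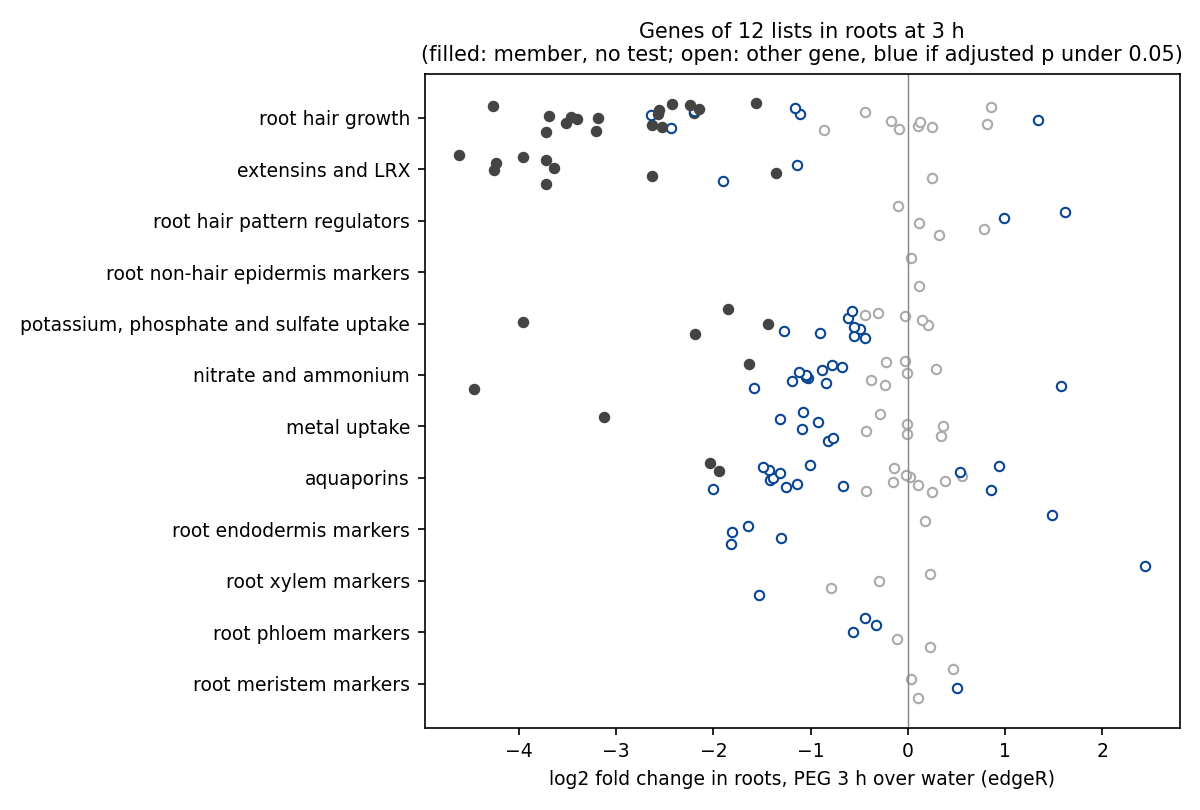
Log2 fold change of root PEG 3 h over root water (edgeR, horizontal axis) for the tested genes of 12 lists (1 row of points each; filled points are members, shown without a test, and open points other genes, outlined in blue at an adjusted p under 0.05). The root hair growth and extensin rows reach below -4, the pattern regulator row lies near or above 0, and the uptake and aquaporin rows hold both members and other genes.

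Peroxidases, CAP-family secretory proteins and metacaspases were also among the members. Of the 33 genes annotated as peroxidase superfamily past the level minimum, 8 were members (24.2%), as were 4 of 9 CAP-family secretory proteins (44.4%) and 3 of 7 metacaspases (42.9%), against 2.51% of all 7563 genes past the level minimum. Other families held smaller shares, such as pectin lyase-like proteins (7.41%), RING/U-box proteins (4.26%) and kinases (2.69%). These families were read from RefSeq names with values known. AT5G17820, a class III peroxidase, had 1036, 728 and 977 normalized counts at 1 h, 609, 477 and 609 at 2 h and 614, 691 and 629.7 at 3 h, against 3875, 3819 and 3556 in water. It was lower at 2 h than at 1 h and about level between 2 h and 3 h. AT3G01190, another peroxidase, had 1025, 706 and 1013 at 1 h, 573, 536 and 563 at 2 h and 361, 356 and 311 at 3 h, against 2740, 2788 and 2745 in water, and went down at each step. AT2G39040, also a peroxidase, took the same stepwise course (-1.57, -2.26 and -3.33). AT5G57625, a CAP-family protein, kept 14.3% of its water level at 3 h, and AGP3, an arabinogalactan protein of the cell surface, 21.1%. Of 41 arabinogalactan and fasciclin-like genes in the table, 2 were members. Of the 36 tested outside the set, 3, 7 and 14 fell at 1 h, 2 h and 3 h (edgeR adjusted p under 0.05). At those times 10, 2 and 5 rose. With the digit term 1, 0 and 4 fell and 2, 2 and 1 rose. Among members, 4 pairs lay next to each other in the gene order, including AT5G06630 with EXT10 and AT3G54580 with HRGP1.

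Carriers for nutrients were among the members, and 12 members were annotated as transporters or channels (6.56% of 183 such genes past the level minimum). HAK5, the high-affinity potassium transporter induced by potassium shortage, had 9.56, 11.2 and 16.4 normalized counts at 1 h, 6.83, 6.66 and 10.15 at 2 h and 7.09, 10.3 and 8.54 at 3 h, against 109, 139.8 and 195 in water (log2 differences -3.47, -4.05 and -3.92). NRT2:1, a high-affinity nitrate transporter, had 1.06, 0.799 and 0 at 1 h, 1.05, 4.16 and 1.01 at 2 h and 0.645, 1.47 and 1.07 at 3 h, against 17.8, 31.6 and 34.7 in water. It had the deepest 1 h difference of the set (-4.17), at counts so low that the PEG values rest on a few reads. WR3 (NRT3.1), the partner protein that NRT2:1 needs, was less low, at -1.40, -1.46 and -1.71.

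PHT1;1, a phosphate transporter, had 1425, 1006 and 1670 normalized counts at 1 h, 931, 814 and 1070 at 2 h and 975, 837 and 755 at 3 h, against 3387, 3451 and 3097 in water. In the last 500 bases of its transcript 11.9% of 40-base words were shared with PHT1;2, so the split between these genes is uncertain. SULTR1;2, a sulfate transporter, stayed level over time at -2.33, -2.22 and -2.36. APR1, which reduces activated sulfate, stood at -1.33, -1.76 and -1.60. ZIP9, a ZIP-family metal transporter, stood at -2.91, -3.46 and -3.02. NIP5;1, a boric acid channel, and PIP2;4, a plasma membrane aquaporin, kept 24.1% and 22.7% of their water level at 3 h.

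Genes of these lists outside the set are by the rule less low or less abundant. Among non-members for potassium, phosphate and sulfate uptake, 3, 7 and 8 of 13 tested fell at 1 h, 2 h and 3 h and 0 rose, with a median log2 fold change of -0.33, -0.44 and -0.49. For nitrate and ammonium, 5, 10 and 10 of 17 non-members fell and 1, 0 and 1 rose (medians -0.27, -0.55 and -0.78). For metal uptake, 3, 5 and 6 of 12 fell and 1, 0 and 0 rose (medians -0.22, -0.37 and -0.60), and for aquaporins 6, 10 and 10 of 22 fell and 1, 1 and 3 rose (medians -0.17, -0.59 and -0.29). NRT1.1, the dual-affinity nitrate transporter and sensor, had 377, 367 and 277 normalized counts at PEG 3 h against 1082, 1101 and 1103 in water and fell by 0.86, 1.25 and 1.58 on the log2 scale over the 3 times (edgeR adjusted p = 0.00017, 1.38e-06 and 4.4e-08). AMT1;1, an ammonium transporter, fell by 0.70, 1.08 and 1.12 (edgeR adjusted p = 0.001, 5.37e-06 and 2.14e-06).

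PHT1;4, a phosphate transporter, did not pass the test at 1 h (log2 fold change -0.38, edgeR adjusted p = 0.131) and fell by 1.28 on the log2 scale at 3 h (adjusted p = 1.02e-05). HA2 (AHA2), the main proton pump of root cells, fell by 0.60, 1.09 and 1.31 (edgeR adjusted p = 0.00181, 2.34e-06 and 1.22e-07). TIP4;1, a tonoplast aquaporin, fell by 0.73, 1.26 and 2.00 (edgeR adjusted p = 0.000749, 1.1e-06 and 2.43e-09). With the digit term, the non-members called lower at 1 h, 2 h and 3 h numbered 0, 1 and 1 of 13 for potassium, phosphate and sulfate, 4, 3 and 8 of 17 for nitrate and ammonium, 1, 3 and 3 of 12 for metals, and 3, 6 and 9 of 22 for aquaporins.

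Some members and other genes outside the root hair lists went lower step by step. MC2, a metacaspase, had 36.1, 25.6 and 32.9 normalized counts at 1 h, 26.8, 13.3 and 29.4 at 2 h and 15.5, 12.3 and 10.7 at 3 h, against 108, 107 and 104 in root water. TED7, named for tracheary element differentiation, went down in the same order (-1.48, -1.98 and -2.51). Neither the xylem nor the endodermis marker list held a member. XCP2, a protease of xylem vessels outside the set, had 344, 343 and 301 at 3 h against 961, 1004 and 1107 in water and fell by 0.84, 1.08 and 1.53 on the log2 scale (edgeR adjusted p = 2.36e-05, 5.9e-07 and 4.98e-09). Of the 5 xylem markers tested it was the 1 that fell, and ACL5, a thermospermine synthase, rose at 2 h and 3 h (log2 fold changes 2.47 and 2.44, edgeR adjusted p = 0.0102 and 0.00552). ACL5 counts were low, with 6.45, 7.37 and 6.94 at 3 h against 1.55, 0 and 2.21 in water. Its 2 h call was lost without PEG 2 h replicate 3 or water replicate 2 (adjusted p = 0.0607 and 0.0518), and both calls were lost with the digit term (0.592 and 0.541). CASP1, a Casparian strip protein of the endodermis, was not called at 1 h (log2 fold change -0.33, edgeR adjusted p = 0.0538) and stood at -1.01 and -1.80 at 2 h and 3 h (adjusted p = 3.72e-06 and 2.08e-09). The 6 endodermis markers summed to 2055 to 3006 normalized counts at 1 h, 1416 to 1695 at 2 h and 847 to 1061 at 3 h, against 2909 to 3035 in water, and the 6 root hair cell markers, of which 4 are members, to 203 to 277, 159 to 192 and 158 to 221, against 1300 to 1409. The sums of phloem markers (870 to 1152 at 3 h against 1058 to 1254) and non-hair epidermis markers (464 to 592 at 3 h against 507 to 550) overlapped water. Single phloem markers were lower, however. Of the 5 tested, 3 fell and 0 rose at 3 h (edgeR adjusted p under 0.05), and 1 fell and 0 rose with the digit term. SEOR1 (167 to 223 at 3 h against 254 to 275) and SEOa (77.9 to 103 against 139 to 152) did not overlap water. The part of cell numbers in these differences was not tested.

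Several members code for transcription factors and stress-named proteins, and some of these were lowest at 1 h. TINY (tny in the annotation), an AP2/ERF factor, had 149.8, 80.7 and 95.8 normalized counts at 1 h, 139, 108 and 113 at 2 h and 165, 144 and 183 at 3 h, against 499, 597 and 653 in water. NAC1, a NAC factor of lateral root formation, had 32.9, 21.6 and 8.21 at 1 h and 25.1, 37.3 and 28.3 at 3 h, against 92.8, 75.7 and 81.9 in water. Both were among the 5 genes with the largest difference upward from 1 h to 3 h, by 0.63 and 0.69, together with AT4G08570 (0.83), VSR7 (1.20) and ERF53 (1.21). VSR7 and ERF53 each had 0 counts in root PEG 1 h replicate 3, the shallowest root library. RAP2.6, an ERF factor, stood at -1.63, -1.35 and -1.41, and WRKY29 at -2.46, -2.79 and -2.42. ERD7, named for early response to dehydration, had 1332, 1021 and 917 normalized counts at 1 h, 1572, 1452 and 984 at 2 h and 1035, 999.8 and 948 at 3 h, against 3189, 3132 and 3047 in water.

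In shoots, most of these genes were weakly expressed. The median member had 3.25% of its root water level in shoot water, against 52.2% for all genes past the level minimum. For 133 of 190 members (70.0%) root water was at least 10 times shoot water, against 9.37% of genes past the level minimum, and 9 members were higher in shoot water. Counts were sufficient to test 72 members in shoots, and these 72 are not a sample of all 190, since low genes drop out. The fit used all 12 shoot libraries, which the rule did not use.

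Of the 72 members, 10 fell and 2 rose at PEG 1 h, 16 fell and 4 rose at 2 h, and 27 fell and 8 rose at 3 h, that is 12, 20 and 35 called in all (edgeR quasi-likelihood, adjusted p under 0.05, Benjamini-Hochberg across 13769 genes). Over all genes tested 1.07% fell and 4.25% rose at 1 h, 5.65% and 8.19% at 2 h, and 11.5% and 14.5% at 3 h. Among tested members the shares that fell were 13.9%, 22.2% and 37.5%, and those that rose 2.78%, 5.56% and 11.1%. The median log2 fold change of the 72 was -0.43, -0.53 and -0.63, against 0.00, 0.01 and 0.01 over all genes. At 1 h every shoot library compared has the code digit 4, and at 3 h all PEG libraries have 5 and water has 4. With a term for the digit 21 members were called at 3 h (16 fell, 5 rose). Over all genes the fit with that term called 7.71% lower and 9.46% higher at 3 h. The 1 h count was 4 without water replicate 2, 5 without water replicate 1, 6 without PEG replicate 3 and 7 without water replicate 3. The 2 h count was 6 without PEG replicate 1, 11 without water replicate 2 and 13 without water replicate 1.

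Members that fell in shoots at all 3 times numbered 9: AT3G54580, AT1G26250, AT1G51860, WR3, MC2, DUR3, AT5G20790, XTH33 and GDU5. With the digit term XTH33 was not called at 3 h (edgeR adjusted p = 0.108), and AT1G26250 was not called at 1 h without water replicate 2 or in a fit of those groups alone (0.0905 and 0.0604). Such alternatives were checked at all 3 times for MC2 alone. They were checked only at 1 h for AT3G54580, AT1G26250 and AT5G20790, and only at 3 h for AT1G51860 and XTH33. GDU5 was checked at 1 h and 2 h, WR3 at 2 h and 3 h, and DUR3 at no time. WR3, the nitrate transport partner, had 145, 149 and 68.5 normalized counts in shoots at 1 h, 87.6, 50.1 and 104 at 2 h and 46.0, 50.5 and 36.3 at 3 h, against 187, 214 and 229 in shoot water (log2 fold changes -0.76, -1.19 and -2.16, edgeR adjusted p = 0.0396, 0.00218 and 1.27e-06). The groups did not overlap at any time. MC2 had 4.84, 10.4 and 9.08 in shoots at 3 h against 64.5, 72.2 and 55.2 in shoot water and fell by 2.81 on the log2 scale (edgeR adjusted p = 4.26e-06); its 1 h call was lost without PEG 1 h replicate 3 or water replicate 1 or 2 (adjusted p = 0.0504 to 0.109), and its 2 h call without PEG 2 h replicate 1 (0.0946). GDU5, a glutamine dumper protein, fell by 1.95, 2.30 and 2.24 (edgeR adjusted p = 0.00317, 0.00316 and 0.000353), with the 2 h call lost without PEG 2 h replicate 1 (0.0644).

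FLA13, a fasciclin-like arabinogalactan protein, was higher in shoot than in root water. It had 1030, 1137 and 441 normalized counts in shoots at 1 h, 577, 375 and 747 at 2 h and 317, 278 and 298 at 3 h, against 1538, 1746 and 1428 in shoot water. It did not pass the test at 1 h (log2 fold change -0.82, edgeR adjusted p = 0.1) and fell by 1.38 and 2.31 at 2 h and 3 h (adjusted p = 0.00464 and 3.4e-05). Replicate 3 of shoot PEG 1 h lay nearer to the 3 h values than the other PEG 1 h libraries did.

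Members for wall proteins and wall enzymes also had low counts in shoots. AT3G54580 had 4.87, 5.14 and 0.890 normalized counts in shoots at 1 h, 1.04, 8.34 and 9.14 at 2 h and 4.84, 13.6 and 8.32 at 3 h, against 17.2, 36.1 and 23.8 in shoot water, a mean of 0.984% of its root water level of 2610 (log2 fold changes -2.75, -2.31 and -1.37, edgeR adjusted p = 0.00189, 0.012 and 0.0251). XTH14 fell at 1 h and 2 h (-2.20 and -2.14, edgeR adjusted p = 0.0193 and 0.0312; at 1 h 0.0505 to 0.138 without PEG 1 h replicate 1 or 3 or water replicate 2 or 3) and was not called at 3 h (-1.24, adjusted p = 0.0655). The 6 root hair cell markers summed to 4.5 to 6.9 in shoots at 1 h, 5.2 to 8.3 at 2 h and 3.6 to 12.03 at 3 h, against 11.9 to 16.6 in shoot water, and SHV2 was at 0 in at least 1 library of each shoot group. The 6 root endodermis markers summed to 76.6 to 109, 50.1 to 125 and 51.5 to 64.98, against 60.5 to 83.9. The part of root RNA in the shoot libraries in these falls was not tested. Of the members that fell in shoots, 3 of 10, 5 of 16 and 10 of 27 had root water levels at least 10 times those of shoot water.

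Other members rose in shoots while their root levels were lower. ERF53, an AP2/ERF factor, had 6.38, 3.99 and 0 normalized counts in roots at 1 h, 4.73, 8.33 and 12.2 at 2 h and 5.16, 5.4 and 10.7 at 3 h, against 29.4, 22.5 and 25.8 in root water. In shoots it had 78.9, 89.9 and 342 at 1 h, 373, 242 and 148 at 2 h and 821, 825 and 788 at 3 h, against 12.9, 15.6 and 10.8 in shoot water (log2 fold changes 3.75, 4.33 and 6.02, edgeR adjusted p = 0.0257, 0.00808 and 0.000509). Leaving out any 1 of the 3 water libraries ended the 1 h call (adjusted p = 0.0902 to 0.115). No shoot PEG library of this gene reached down to shoot water, and no root PEG library reached up to root water. PIL5 (PIF1), a phytochrome-interacting factor, was the other member that rose in shoots at all 3 times, by log2 fold changes of 0.92, 1.03 and 1.07 (edgeR adjusted p = 0.0472, 0.0229 and 0.00507). Its 1 h call was lost on leaving out PEG 1 h replicate 2 or 3 or any water library (adjusted p = 0.0741 to 0.221), and its 2 h call without PEG 2 h replicate 1 or water replicate 1 or 2 (0.0619 to 0.365).

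At 3 h in shoots AT1G51090, annotated as a heavy metal transport or detoxification protein, had 284, 335 and 283 normalized counts against 54.8, 60.5 and 77.9 in shoot water (log2 fold change 2.32, edgeR adjusted p = 0.0187). NAC046, a NAC factor linked to leaf senescence, had 35.1, 35.3 and 59.8 against 10.8, 18.5 and 9.74 (1.83, edgeR adjusted p = 0.00297). KUP9, a potassium permease, and APR1 rose by 1.08 and 0.73 (edgeR adjusted p = 0.00389 and 0.00129). CIPK9, a kinase of potassium homeostasis that was higher in shoot than in root water, rose by 0.80 at 2 h and 0.62 at 3 h (edgeR adjusted p = 0.00368 and 0.00751). With the digit term the 3 h calls of APR1 and CIPK9 were lost. The 3 h call of AT1G51090 was not checked with that term. Each of these genes had all its root PEG libraries below root water at the 3 times. The difference between tissues was not tested, since the rule fixed the root direction.

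**Figure D5:**
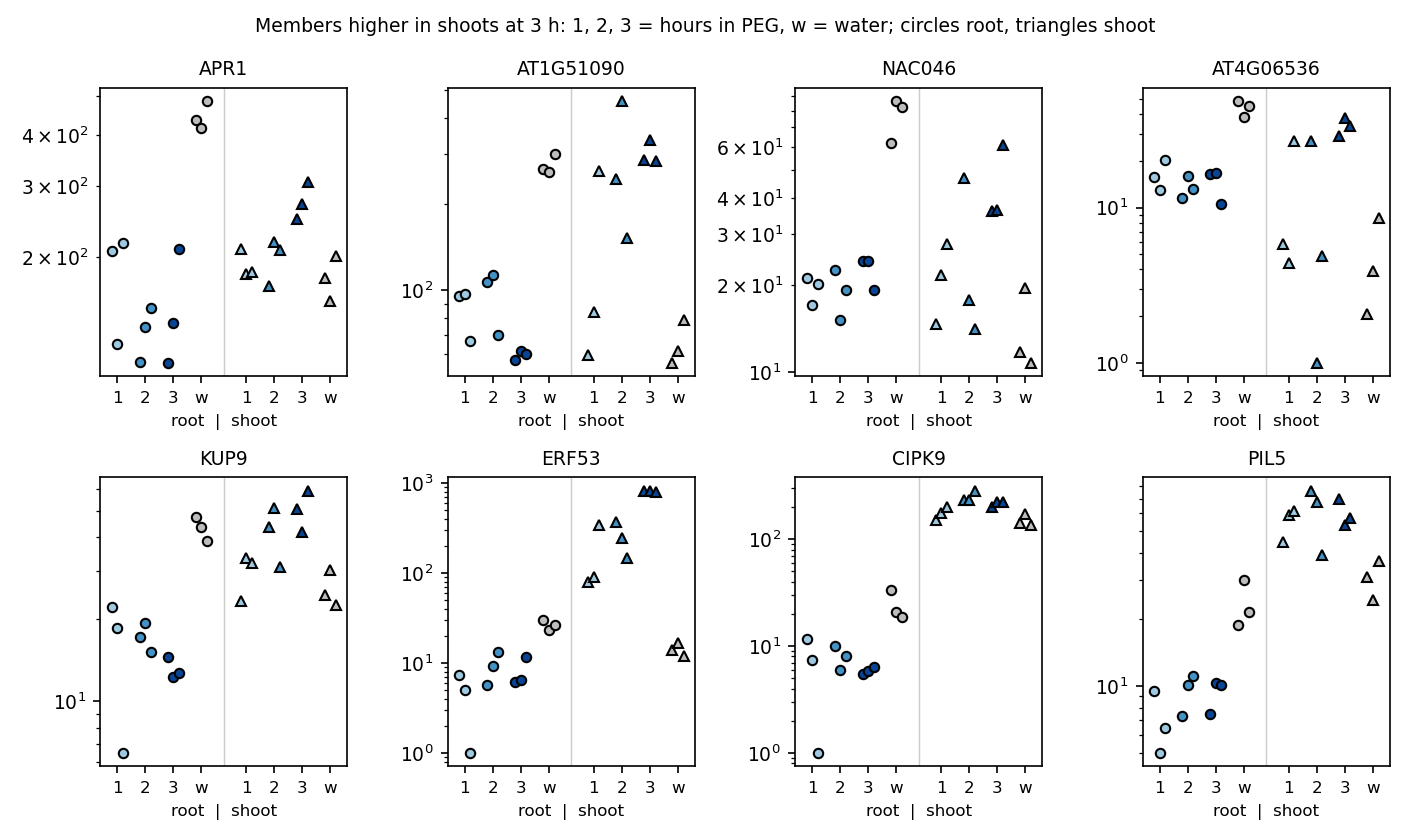
Normalized counts plus 1 (log axis) of the 8 members that rose in shoots at 3 h, in roots (circles) and shoots (triangles) after 1, 2 and 3 h in PEG and in water (w), 3 libraries each. In roots the PEG points lie below the water points in every panel, and in shoots the 3 h points lie above them, with ERF53 at 788 to 825 against 10.8 to 15.6.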

How the data were processed

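RNA of 24 libraries (8 groups of 3) was measured by MARS-seq. Per the submitters' processing notes, reads were handled with bcl2fastq, cutadapt, STAR 2.4.2a, HTSeq and DESeq2; no source used here names the genome build. The authors deposited raw counts per gene and normalized signal values; in each library the deposited normalized value equals the count divided by 1 factor, the same for every gene. The deposited rlog values were not used. Genes were selected from the normalized values (pseudocount 1, limit -1.25, level minimum 20). The counts were tested with edgeR 4.0.16 (R 4.3.3; filterByExpr, TMM, robust quasi-likelihood F test, two-sided) in 1 fit per tissue with 4 group means, and p-values were Benjamini-Hochberg adjusted over all genes of the fit, with calls at an adjusted p under 0.05. The fit was tested on simulated data first. Nothing says that replicates were separate plantings, so p-values measure the spread between pools. Counts carry counting error that is larger in the 2 shallow libraries. RefSeq names matched 18125 of 18240 loci, and 681 list entries were kept from 776 in 32 lists. Genes named are members with the 15 highest root water levels, the 15 lowest mean differences, the 5 highest and 5 lowest differences of 3 h minus 1 h, the nearest 3 on each side of the limit, the 6 lowest adjusted p per direction and time in shoots, members on a list, and up to 4 non-members per list with the lowest adjusted p at 3 h; families and a few further members were chosen after their values were seen. The members and lists were chosen with earlier results of these data known. Alternatives were DESeq2 1.42.0, other scalings, filters, fits, a replicate block, the code digit as a term and leaving out libraries.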

Additional observations from a re-analysis of the deposited data

Results flagged for a closer look

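In 9 of the 72 genes tested in shoots the shoot libraries in PEG all lay above shoot water, with a call in edgeR's test, while the root libraries in PEG at the same time all lay below root water; the difference between tissues was not tested, and the root direction is fixed by the choice of genes. ERF53 stood at shoot log2 fold changes of 3.75 at 1 h, 4.33 at 2 h and 6.02 at 3 h. PIL5 stood at 0.92, 1.03 and 1.07 at the same times. CIPK9 stood at 0.80 at 2 h and 0.62 at 3 h. ERD7, named for dehydration, stood at 0.59 at 2 h, a call that leaving out any 1 library of the comparison ended (adjusted p = 0.0719 to 0.175). The ERD7 call was also lost with the DESeq2 Wald test (adjusted p = 0.0592). In edgeR it was lost with RLE size factors (0.0513), all 24 libraries (0.0604), no filter on low counts (0.0535) and the digit term (0.0714). At 3 h AT4G06536, an SPRY domain protein, stood at 3.14, AT1G51090 at 2.32, NAC046 at 1.83, KUP9 at 1.08 and APR1 at 0.73. The 3 h calls of AT4G06536 and AT1G51090 were not checked in other fits. The members that rose were 2.78%, 5.56% and 11.1% of the 72 at 1 h, 2 h and 3 h, against 4.25%, 8.19% and 14.5% of all genes tested, so the shares were not above those over all genes.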

How the results depend on the processing

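The set itself depends on its limits: it holds 293 genes with a limit of -1, 121 with a level minimum of 50, and 175 to 209 when 1 root library is left out. Other pseudocounts, limits, level minimums and scalings gave 135 to 233, and all of them lie within 1.5 times of 190. Of the members called in shoots, 12, 20 and 35 at 1 h, 2 h and 3 h, the 1 h count was 6 with DESeq2 and 26 in a fit of all 24 libraries. The 3 h count was 66 in the fit of all 24 libraries, 54 with no filter on low counts and 21 with the code digit term. The fit of all 24 libraries and the fit with no filter chose the genes to test in other ways. Their counts are thus not out of the same 72 members, and their shares over all genes are not given here. Leaving out 1 library gave 4 to 15, 6 to 22 and 28 to 34. List genes called in roots, members included although the rule fixes their calls, numbered 121, 165 and 218, against 50, 59 and 89 with the code digit term (non-members alone 86, 130 and 183 of 366, against 22, 37 and 68), and 82 to 133, 138 to 152 and 192 to 221 on leaving out 1 library. The cause of these changes was not tested. RHD6 at 1 h, called in no fit, stood at -0.15 with all 24 libraries, -0.019 with no filter and -0.16 to 0.20 on leaving out 1 library. GL2 stood at 0.23 at 2 h with the code digit term and at -0.029 to 0.19 at 3 h on leaving out 1 library. Among values of single genes 1248 kept direction and side of the threshold, 82 lost the call, 20 gained one and 7 changed sign. In shoots a member was checked this way only at the times when it had 1 of the 6 lowest adjusted p in its direction. Replicate numbers did not pair the libraries: the correlation of deviations passed 0.1 in 2 of 18 same-numbered pairs in roots and in 2 of 18 in shoots. With a replicate block 8, 14 and 38 members were called in shoots and 118, 165 and 218 list genes in roots. Depth limits the low genes: 118 members had too few shoot counts to be tested.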
